A study of Mus musculus with 8 samples.

Results

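The enzymes and transporters that handle arginine in macrophages were measured on single-colour Agilent arrays of mouse peritoneal cells. The set comprised 10 genes: Arg1, Arg2, Nos2, Ass1, Asl, Odc1, Srm, Oat, Slc7a1 and Slc7a2. Their probes were found by the accession that the array design gives each spot, which yielded 14 of the 55681 noncontrol probes. Odc1 had 3 probes, Ass1 and Srm had 2 each, and the other genes had 1 each. All 14 probes were well above background on all 8 arrays, so none was lost to the filter on dim probes that left 31159 probes for testing.

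Each of the 4 groups held 2 arrays, numbered 1 and 2 only to tell them apart. Fra-1 knockout mice carried 2 floxed alleles of Fosl1, the gene of the AP-1 factor Fra-1, and an Mx Cre transgene (Fra-1lox/lox MxCre-/+). Fra-1 controls were wild-type Fra-1lox/lox littermates, with no Cre in the label. Mice labelled Fra-2 knockout carried floxed Fosl2, the gene of the related factor Fra-2, and a LysM Cre allele (Fra-2lox/lox LysMCre-/+), and Fra-2 controls were wild-type Fra-2lox/lox littermates. All mice were 8 weeks old, male or female, on a mixed 129/C57Bl6 background. The Mx promoter answers to interferon in many cell types, the LysM promoter is active in myeloid cells, and the labels used here name no inducer of Mx Cre. Cells of both groups of the Fra-1 line were labelled as elicited with thioglycollate, an irritant that draws cells into the peritoneal cavity, and those of the Fra-2 line carried no such label. Lavage cells were plated overnight and RNA was taken from those that adhered, so each array read a mixed adherent population. In such samples, fewer cells of a type and less RNA per cell cannot be told apart.

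Arginine enters macrophages through the cationic amino acid transporters CAT1 (Slc7a1) and CAT2 (Slc7a2). Inside, arginases and the inducible nitric oxide synthase Nos2 compete for it: arginases split it into urea and ornithine, whereas Nos2 turns it into nitric oxide and citrulline. Ass1 and Asl rebuild arginine from citrulline. Ornithine feeds polyamine synthesis through Odc1 and Srm, or proline and glutamate through Oat. In mice, Arg1 is a classic marker of macrophages treated with interleukin 4, and Nos2 of those treated with interferon gamma and bacterial products. Published work on Fra-1 in macrophages asked whether the factor acts on Arg1.

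The 75th percentile of signal, to which levels were scaled, ran from 315.4 to 470.2 across arrays, and 47.7% to 57.6% of spots were well above background. Both lowest values belonged to the first array labelled Fra-2 knockout. All arrays were scanned on 1 day. Slide 1 held Fra-1 knockout 1, both Fra-1 controls, and array 1 of each Fra-2 group, whereas slide 2 held array 2 of the other 3 groups and no Fra-1 control. Fosl1 was not well above background on either Fra-1 knockout array and was above it on both Fra-1 controls, a difference of at least 3.91-fold that was not called (adjusted p = 0.37). The brighter Fosl2 probe read 6.43 and 7.14 on the arrays labelled Fra-2 knockout and 5.51 and 5.57 on Fra-2 controls, the opposite of a loss. The dimmer probe was above background on 1 of the 2 arrays labelled Fra-2 knockout and on both Fra-2 controls, so its difference of −1.27 rests in part on an array near background. Neither Fosl2 difference was called (adjusted p = 0.22 and 0.30), and where these probes lie relative to the deleted part is not given in the sources used here. These arrays are therefore called by their label throughout. Of 7 macrophage markers, 6 or 7 were above background on both arrays of each group, and their summed signal was 957 to 1140 in Fra-1 knockouts, 1190 to 1570 in Fra-1 controls, 1590 to 1670 on the arrays labelled Fra-2 knockout and 1160 to 1920 in Fra-2 controls (multiples of the array's 75th percentile). In this and later sums, a marker whose spot was dropped as an outlier counted at the array's lowest level and as not above background. Csf1r had no level on an array of Fra-1 knockouts and on an array of Fra-2 controls, the groups with 6. The sums of those arrays thus leave it out.

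The table of RefSeq promoter windows used here (250 bases before to 50 after the start, build GRCm38.p6) had entries that matched 4 of the 10 genes, 1 each for Ass1, Odc1 and Oat and 2 for Slc7a1. The windows of Slc7a1, Ass1 and Odc1 are shown because these genes differed between the control groups below, Ass1 in one direction and the other genes in the opposite one. Both strands were searched for AP-1 (TGACTCA), the cyclic AMP response element (TGACGTCA), the E-box (CACGTG), a palindromic STAT6 site and the NF-kappaB site. These occur in 5.2%, 1.79%, 7.15%, 6.95% and 0.155% of 32851 RefSeq windows of 300 bases. The 250 bases before the start are printed 5′ to 3′ on the gene's strand, with matches in capitals.
Slc7a1, chr5:148399905-148400154, minus strand: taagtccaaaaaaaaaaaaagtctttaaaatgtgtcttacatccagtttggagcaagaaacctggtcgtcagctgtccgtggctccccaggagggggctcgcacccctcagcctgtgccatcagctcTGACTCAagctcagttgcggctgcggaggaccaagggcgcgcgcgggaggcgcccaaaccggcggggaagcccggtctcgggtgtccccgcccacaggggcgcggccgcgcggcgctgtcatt
Ass1, chr2:31470020-31470269, plus strand: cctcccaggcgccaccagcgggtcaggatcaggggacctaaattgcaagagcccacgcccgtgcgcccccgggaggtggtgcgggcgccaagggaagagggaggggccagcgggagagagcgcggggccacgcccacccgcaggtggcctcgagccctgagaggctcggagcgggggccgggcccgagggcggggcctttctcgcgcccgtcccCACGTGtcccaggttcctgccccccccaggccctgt
Odc1, chr12:17544623-17544872, plus strand: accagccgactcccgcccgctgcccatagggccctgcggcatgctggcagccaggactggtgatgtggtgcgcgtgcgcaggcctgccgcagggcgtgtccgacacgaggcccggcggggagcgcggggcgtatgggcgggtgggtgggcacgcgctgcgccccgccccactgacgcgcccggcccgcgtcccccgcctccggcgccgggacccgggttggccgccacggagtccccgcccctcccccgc
The Slc7a1 window held 1 AP-1 match at −123 to −117 from the start, and the Ass1 window held 1 E-box at −36 to −31. None of the 5 motifs occurred in the windows of Odc1 and Oat or in the second window of Slc7a1. A match is a run of letters, not a shown binding site.

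Levels are given as normalized log2 signal, that is, log2 of the processed signal minus that of the array's 75th percentile, so 0 marks a probe at that percentile and 1 unit is a doubling. Levels of different probes are not compared with each other. Arg1, the cytosolic arginase (probe A_51_P303160), read 6.03 and 5.48 on Fra-1 knockout arrays 1 and 2, and 1.72 and 5.17 on Fra-1 controls 1 and 2. It read 3.00 and 4.05 on the arrays labelled Fra-2 knockout and 5.96 and 6.16 on Fra-2 controls. The array that stood apart was Fra-1 control 1, whose level was below every other array of the study, while Fra-1 control 2 lay close to the knockouts of its line. The arrays labelled Fra-2 knockout lay below both of their controls. The SD within groups, pooled over all 4, was 1.29 for Arg1, larger than that of 98.3% of the tested probes. In order of their means, Fra-2 controls (6.06 ± 0.14, SD, n = 2 in each group) were followed by Fra-1 knockouts (5.76 ± 0.40), arrays labelled Fra-2 knockout (3.52 ± 0.74) and Fra-1 controls (3.45 ± 2.44). The first pair of neighbours and the last pair differed by less than their spread.

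Arg2, the mitochondrial arginase (A_52_P374897), had another pattern. Its level was −2.88 and −2.08 in Fra-1 knockouts, −2.20 and −2.59 in Fra-1 controls, 4.30 and 4.77 on the arrays labelled Fra-2 knockout, and 3.42 and 4.37 in Fra-2 controls. The 4 arrays of the Fra-2 line were all far above the 4 of the Fra-1 line, and within each line the arrays of knockouts and controls overlapped.

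Nos2, the inducible nitric oxide synthase (A_55_P2158741), read −1.83 and −2.20 in Fra-1 knockouts and −3.02 and −2.39 in Fra-1 controls. It read −2.20 and −1.09 on the arrays labelled Fra-2 knockout and −0.53 and −0.17 in Fra-2 controls. Knockouts and controls did not overlap in either line, with knockouts higher in the Fra-1 line and lower in the Fra-2 line. The probe was present as 2 spots per array, none of them an outlier or saturated, and was the only one of the 14 with more than 1 spot.

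Slc7a2, the CAT2 transporter (A_52_P77764), was at −1.22 and −1.10 in Fra-1 knockouts and −1.73 and −1.08 in Fra-1 controls, so these groups overlapped. It was at −1.55 and 0.03 on the arrays labelled Fra-2 knockout and −0.14 and 0.71 in Fra-2 controls, which overlapped as well. Slc7a1, the CAT1 transporter (A_66_P106661), had a smaller spread within groups (pooled SD 0.10, against 0.68 for Slc7a2). Its level was 3.63 and 3.61 in Fra-1 knockouts, 3.21 and 3.43 in Fra-1 controls, 2.02 and 2.10 on the arrays labelled Fra-2 knockout, and 2.30 and 2.17 in Fra-2 controls. The 4 groups of Slc7a1 did not overlap, and both groups of the Fra-1 line were above both groups of the Fra-2 line.

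Ass1, argininosuccinate synthase, was measured by 2 probes. The brighter one (A_55_P2004781) read 1.62 and 1.99 in Fra-1 knockouts, 1.17 and 1.20 in Fra-1 controls, 4.31 and 5.53 on the arrays labelled Fra-2 knockout, and 4.39 and 5.25 in Fra-2 controls. The dimmer one (A_55_P2143070) read 0.33 and 0.69 in Fra-1 knockouts, −0.05 and −0.17 in Fra-1 controls, 3.13 and 4.50 on the arrays labelled Fra-2 knockout, and 3.31 and 4.17 in Fra-2 controls. Both probes placed the Fra-1 line far below the Fra-2 line. Asl, argininosuccinate lyase (A_51_P174645), which takes the next step, was nearly level. It read 2.83 and 2.82 in Fra-1 knockouts, 2.78 and 2.45 in Fra-1 controls, 2.51 and 2.77 on the arrays labelled Fra-2 knockout, and 2.55 and 2.79 in Fra-2 controls. All Asl arrays of the other 3 groups lay below the Fra-1 knockouts and overlapped among themselves.

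Odc1, ornithine decarboxylase, which makes putrescine, was measured by 3 probes. The brightest (A_55_P1995173) read 3.95 and 3.96 in Fra-1 knockouts, 3.87 and 3.89 in Fra-1 controls, 2.48 and 2.64 on the arrays labelled Fra-2 knockout, and 3.11 and 2.90 in Fra-2 controls. The middle one (A_52_P436238) read 1.26 and 1.07 in Fra-1 knockouts, 1.09 and 1.15 in Fra-1 controls, −0.01 and 0.21 on the arrays labelled Fra-2 knockout, and 0.67 and 0.31 in Fra-2 controls. The dimmest (A_55_P1982818) read −0.96 and −0.89 in Fra-1 knockouts, −1.28 and −0.94 in Fra-1 controls, −2.48 and −1.91 on the arrays labelled Fra-2 knockout, and −1.63 and −1.74 in Fra-2 controls. All 3 probes placed the arrays labelled Fra-2 knockout lowest, without overlap with their controls, and the Fra-1 line highest.

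Srm, spermidine synthase, had 2 probes. The brighter (A_51_P300709) read 2.92 and 2.88 in Fra-1 knockouts, 2.63 and 3.10 in Fra-1 controls, 1.51 and 1.44 on the arrays labelled Fra-2 knockout, and 1.64 and 1.85 in Fra-2 controls. The dimmer (A_55_P2002376) read 2.48 and 2.47 in Fra-1 knockouts, 2.36 and 2.61 in Fra-1 controls, 1.01 and 1.01 on the arrays labelled Fra-2 knockout, and 1.0 and 1.39 in Fra-2 controls. As with Odc1, both probes lay higher in every array of the Fra-1 line, and Fra-1 knockouts lay between their own controls. Oat, ornithine aminotransferase (A_51_P141535), read 3.01 and 3.04 in Fra-1 knockouts, 2.81 and 3.04 in Fra-1 controls, 3.13 and 3.14 on the arrays labelled Fra-2 knockout, and 3.19 and 3.25 in Fra-2 controls. The lines did not overlap in Oat either, but by a small margin.

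**Figure D1:**
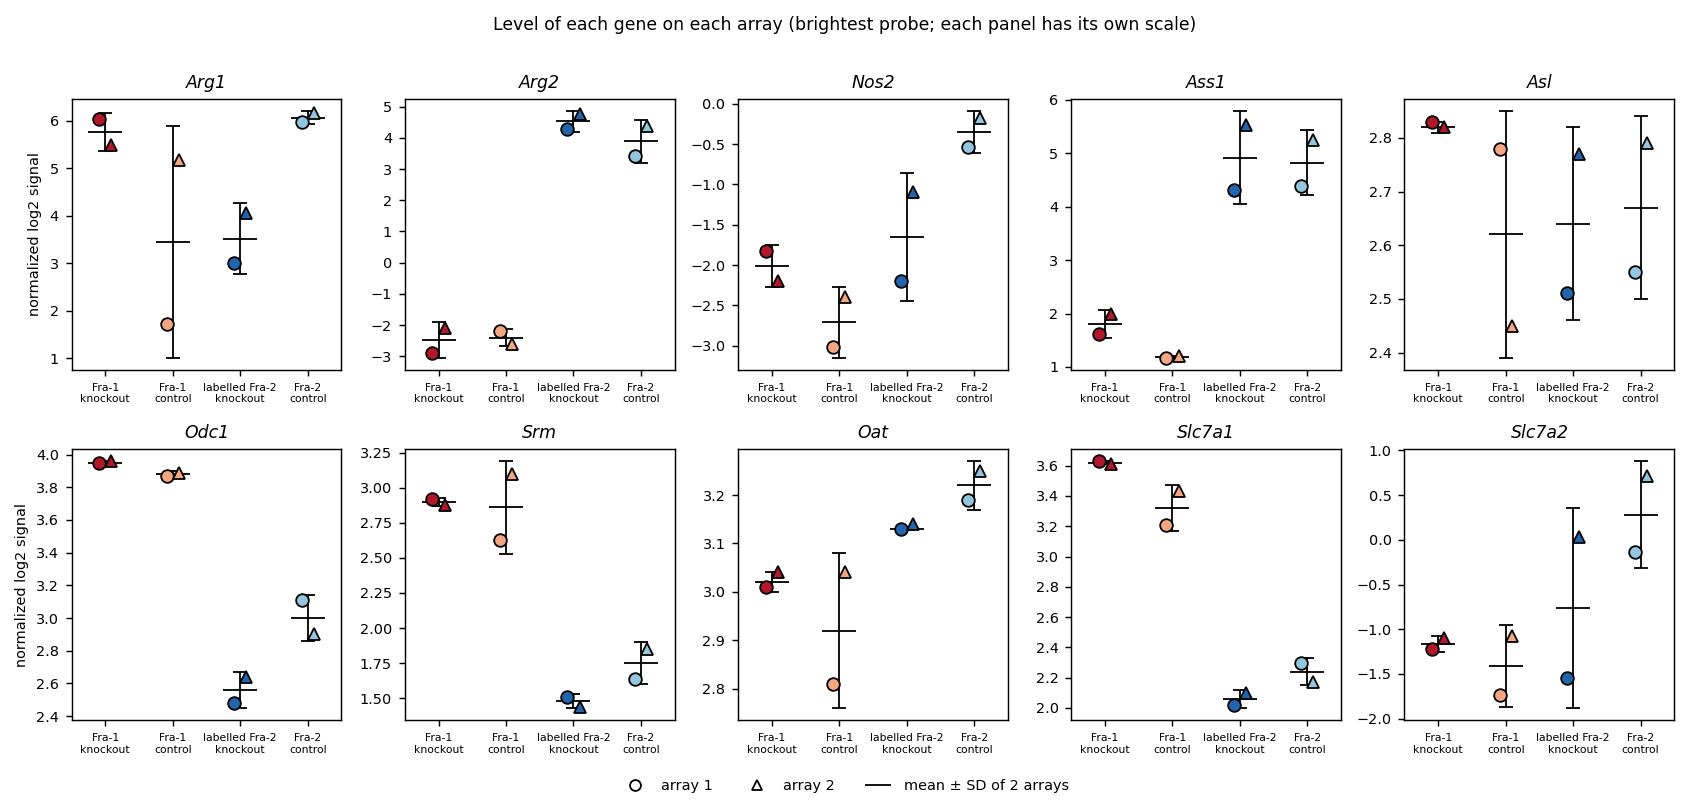
Normalized log2 signal (vertical axis, own scale in each panel) of the brightest probe of each of the 10 genes on each of the 8 arrays, by group, with the mean and SD of 2 arrays as a bar. Arg2 and Ass1 lie lower in both Fra-1 line groups, Odc1, Srm and Slc7a1 lie higher there, and Arg1 has 1 low Fra-1 control array at 1.72.

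**Figure D2:**
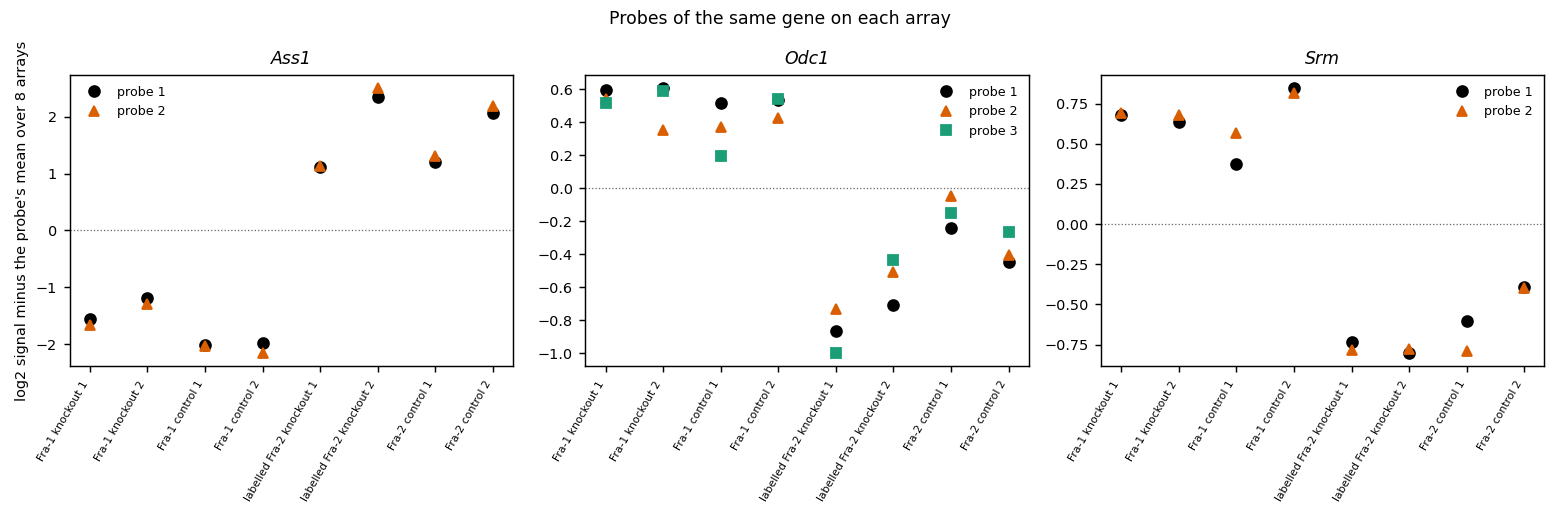
Log2 signal of each probe minus its own mean over the 8 arrays (vertical axis), for the 3 genes with more than 1 probe, on each array (horizontal axis). Probes of a gene moved alike: their difference varied across arrays by 0.33 for Ass1, 0.38 for Srm and at most 0.59 among the probes of Odc1.

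In Fra-1 knockouts against Fra-1 controls, none of the arginine and polyamine genes changed past the threshold. A probe was called at an adjusted p under 0.05 over all probes tested (limma, Benjamini-Hochberg), and 0 of the 14 were called, beside 5 of 31143 tested probes (0.0161%). At an unadjusted p under 0.05 the count was also 0 of 14, against 8.63% of all probes. The differences were positive for 12 probes and negative for 2, with a median of 0.20 log2 units against 0.03 over all tested probes. By the brightest probe of each gene, 9 were positive and 1 negative, all read on the same arrays. The arrays of knockouts and controls did not overlap for 7 of the 14 probes, beside 45.8% of all probes.

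The difference of Arg1 was 2.31 log2 units higher in Fra-1 knockouts (SE 1.06, 95% interval −0.27 to 4.89, adjusted p = 0.622), and it turned on the control arrays. Leaving out Fra-1 control 1 gave 0.59 and leaving out Fra-1 control 2 gave 4.03, with adjusted p from 0.210 upward when any array was left out. Within slide 1, where both Fra-1 controls and 1 knockout lay, it was 2.59. Nos2 was 0.69 higher (SE 0.41, interval −0.32 to 1.70, adjusted p = 0.691), and 0.38 without Fra-1 control 1. Arg2, the other arginase, differed by −0.09 (interval −1.10 to 0.93).

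The citrulline-recycling enzyme Ass1 was 0.62 higher in Fra-1 knockouts by both probes (SE 0.46 and 0.49, adjusted p = 0.742 and 0.758). With slide as a block these differences were 0.21 and 0.19, and within slide 1 they were 0.43 and 0.44. Slc7a1 was 0.30 higher (SE 0.13, interval −0.03 to 0.62), with the smallest adjusted p of the 14 probes, 0.614, and 0.19 higher without Fra-1 control 1. The intervals were narrow for Odc1 (brightest probe, −0.24 to 0.40), Oat (−0.21 to 0.41) and Srm (−0.41 to 0.50), so for these a doubling lies outside the interval. For Slc7a2 the interval ran from −1.12 to 1.66.

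Markers of other cells were not level in this comparison. The summed signal of 6 fibroblast markers was 40.6 to 63.3 in Fra-1 knockouts, where 5 of the 6 were above background on both arrays, against 109 to 157 in Fra-1 controls, where all 6 were. For 6 mesothelial markers, all above background in both groups, it was 4.77 to 7.14 in knockouts against 10.1 to 14.7 in controls. Mast cell markers summed to 1.28 to 1.51 in knockouts, with 5 of 6 above background on both arrays, against 2.18 to 2.62 in controls, with all 6. Neutrophil markers, 4 of 5 above background on both arrays of each group, summed to 13.5 to 20.2 against 11.6 to 12.6, and large resident macrophage markers, 5 of 6, to 17.2 to 18.7 against 14.7 to 16.2. Among these 6, Gata6 ran against the sum at −1.45 (adjusted p = 0.36), whereas the others read 0.28 to 0.80 higher in knockouts. The sums of B cell, T cell and eosinophil markers overlapped between the groups. No tested marker of these lists was called. Their part in the differences of the arginine genes was not tested.

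Between the arrays labelled Fra-2 knockout and Fra-2 controls, again 0 of the 14 probes were called, beside 1 of 31152 (0.00321%). Direction here goes by the label, which the brighter Fosl2 probe opposed. At an unadjusted p under 0.05 there were 2 probes, for Odc1 and Nos2, which is 2 of 14 beside 8.69% of all probes. The differences were negative for 11 probes and positive for 3, with a median of −0.23 against −0.02 over all probes. By the brightest probe of each gene, 8 were negative and 2 positive, again on the same arrays. Arrays did not overlap for 8 of the 14 probes, beside 35.3% of all.

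Arg1 was 2.54 log2 units lower on the arrays labelled Fra-2 knockout (−2.54, SE 1.06, interval −5.12 to 0.04, adjusted p = 0.58). The difference was −2.97 within slide 1 and −2.12 within slide 2, and −3.07 to −2.02 with any array left out. Nos2 was lower too (−1.29, SE 0.41, unadjusted p = 0.0201, adjusted p = 0.452). It was −1.67 within slide 1 and −0.92 within slide 2, and −0.73 without the first array labelled Fra-2 knockout. Slc7a2 differed by −1.04 (SE 0.56, adjusted p = 0.687), by −0.25 without that same array, by −1.83 without the second and by −0.61 without Fra-2 control 2. Arg2 ran the other way, at 0.64 (SE 0.42, interval −0.38 to 1.65), with 0.40 without the second array labelled Fra-2 knockout, 0.16 without Fra-2 control 1 and 1.12 without Fra-2 control 2.

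Odc1 was lower by all 3 probes on the arrays labelled Fra-2 knockout. The differences were −0.44 (SE 0.13, unadjusted p = 0.0149, adjusted p = 0.407), −0.39 (SE 0.17) and −0.51 (SE 0.22) from the brightest to the dimmest probe. The 3 probes read the same RNA extracts and are not replicates. For the brightest the difference was −0.62 within slide 1 and −0.26 within slide 2. The middle probe gave −0.21 without Fra-2 control 1, and the dimmest gave −0.23 without the first array labelled Fra-2 knockout and −0.79 without the second. Within slides 1 and 2 the middle probe differed by −0.68 and −0.10 and the dimmest by −0.85 and −0.17. Srm (−0.27 and −0.18), Slc7a1 (−0.18), Oat (−0.09) and Asl (−0.03) differed by less. Ass1 differed by 0.10 and 0.08, with intervals of −1.01 to 1.22 and −1.12 to 1.27. Neutrophil markers, 3 of 5 of them above background on both arrays of each group, summed to 27.1 to 31.0 on the arrays labelled Fra-2 knockout against 13.1 to 20.0 in Fra-2 controls. Those tested were unlike: S100a9 (4.93), S100a8 (0.56) and Camp (0.45) read higher and Ltf (−0.20) lower. T cell markers, all 4 on the array above background, summed to 6.36 to 6.89 against 8.13 to 8.57, and mesothelial markers, 3 of 6, to 0.835 to 0.931 against 0.727 to 0.790. The sums of the other lists overlapped. Large resident macrophage markers summed to 262 to 263 against 112 to 369, but a Fra-2 control had no level of Cxcl13. In that list F5 (1.28), Selp (1.08), Gata6 (0.94) and Icam2 (0.21) read higher, and Cxcl13 (−1.27) and Timd4 (−0.25) lower. None of the tested markers of any list was called, and their part in the differences of the arginine genes was not tested.

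**Figure D3:**
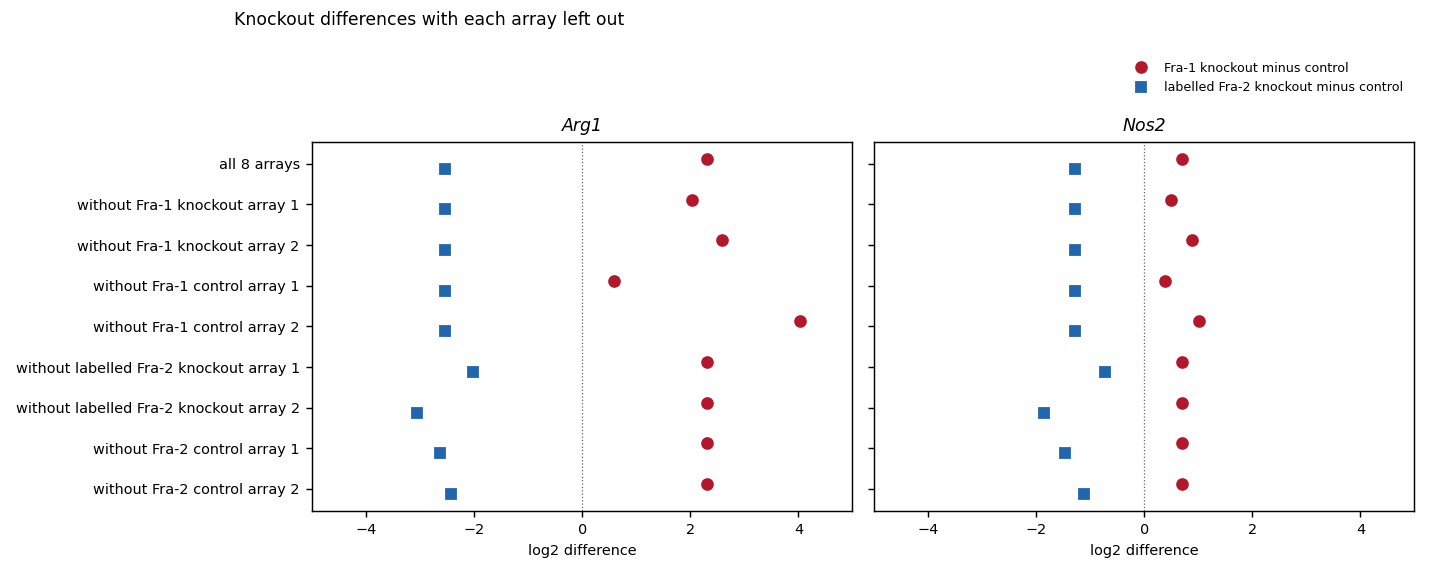
Log2 difference (horizontal axis) of Arg1 and Nos2 between Fra-1 knockouts and controls (circles) and between arrays labelled Fra-2 knockout and their controls (squares), over all 8 arrays and with each array left out (vertical axis). The Arg1 difference in the Fra-1 line moves between 0.59 and 4.03 with 1 control array left out, while that in the Fra-2 line stays between −3.07 and −2.02.

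The contrast of the knockout effects, that is, the Fra-1 difference minus the difference by label in the Fra-2 line, was positive for 13 of the 14 probes and called for none of them. By the brightest probe of each gene it was positive for 9 and negative for 1. All probes share the same arrays, so these signs are not independent. Over all probes, 1 of 31137 was called (0.00321%). At an unadjusted p under 0.05 there were 4 probes, of Arg1, Nos2, Odc1 and Slc7a1, beside 9.33% of all probes. For Arg1 the contrast was 4.85 (SE 1.49, interval 1.20 to 8.50, unadjusted p = 0.0174, adjusted p = 0.42), and it ran from 3.13, without Fra-1 control 1, to 6.57, without Fra-1 control 2. For Nos2 it was 1.98 (SE 0.58, interval 0.56 to 3.41, unadjusted p = 0.0144, adjusted p = 0.403), and it ran from 1.42 to 2.54. The brightest Odc1 probe gave 0.52 (adjusted p = 0.479) and Slc7a1 gave 0.48 (adjusted p = 0.519). The median of the 14 probes was 0.49, against 0.05 over all probes.

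Fra-1 controls against Fra-2 controls gave the large differences of the set. Arg2, Ass1 and Nos2 were lower in Fra-1 controls, and Odc1, Srm and Slc7a1 were higher. Of the 14 probes 9 were called, for these 6 genes, beside 10778 of 31139 tested probes (34.6%). Of these 9 probes 4 were lower and 5 higher, beside 17.6% and 17.1% of all probes. Arrays did not overlap for 13 of the 14, beside 71.3% of all. The floxed line, the thioglycollate label and everything else in the preparation of these mice go together here and cannot be told apart.

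Arg2 was 6.29 log2 units lower in Fra-1 controls (−6.29, SE 0.42, interval −7.30 to −5.28, adjusted p = 0.000342), a 78.2-fold difference. Under the alternatives tried, this difference ran from −6.77 to −5.33. The fold rests on low processed signals in Fra-1 controls, 89.1 and 77.9, against 4304.1 and 8512.6 in Fra-2 controls. Ass1 was 12.4-fold lower by its brighter probe (−3.63, SE 0.46, adjusted p = 0.00244) and 14.4-fold lower by its dimmer one (−3.85, SE 0.49, adjusted p = 0.00253). Nos2 was 5.11-fold lower (−2.35, SE 0.41, adjusted p = 0.00782), and it remained called under all alternatives (adjusted p from 0.000848 to 0.0464). These genes thus differed by more than the spread between arrays. Slc7a2 also read lower (−1.69, SE 0.56, interval −3.05 to −0.32), but at an adjusted p of 0.0625 it was not called.

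Among the polyamine genes, Srm was 2.16-fold higher in Fra-1 controls by its brighter probe (1.11, SE 0.18, adjusted p = 0.00646) and 2.44-fold higher by its dimmer one (1.29, SE 0.17, adjusted p = 0.00292). The brightest Odc1 probe was 1.83-fold higher (0.87, SE 0.13, adjusted p = 0.00447). The middle Odc1 probe gave 0.62 (adjusted p = 0.0355) and the dimmest 0.58 (adjusted p = 0.0942, not called). The importer Slc7a1 was 2.12-fold higher (1.08, SE 0.13, adjusted p = 0.00219). Asl differed by −0.05 (interval −0.48 to 0.37) and Oat by −0.30 (interval −0.61 to 0.01, adjusted p = 0.122).

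Arg1 was not called between the controls (−2.62, SE 1.06, interval −5.20 to −0.04, adjusted p = 0.106). Without Fra-1 control 2 it was −4.34 and was called (adjusted p = 0.00733), and without Fra-1 control 1 it was −0.89. With knockouts and controls of each line averaged, its difference between the Fra-1 and Fra-2 lines was −0.19 (SE 0.75). By that average 10 of the 14 probes were called, beside 52.7% of all probes, 6 of them higher (26.2% of all) and 4 lower (26.5%). The difference was then −6.65 for Arg2, −3.37 and −3.58 for Ass1, −1.36 for Nos2 and 1.32 for Slc7a1. The 4 arrays of a line did not overlap the 4 of the other for 10 probes, of Arg2, Ass1, Odc1, Srm, Oat and Slc7a1, beside 50.2% of all probes.

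**Figure D4:**
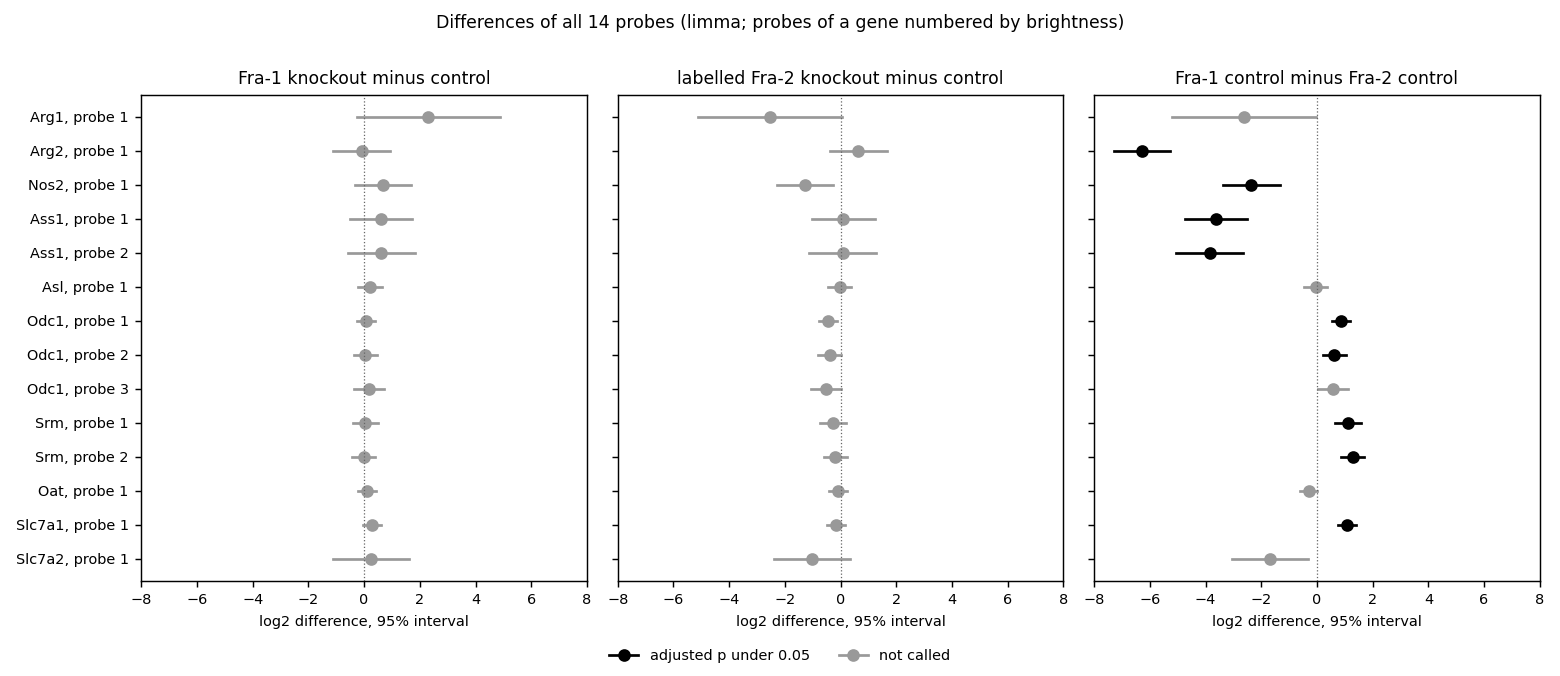
Log2 difference (horizontal axis) with its 95% interval for each of the 14 probes (vertical axis, numbered by brightness within a gene) in 3 comparisons; black marks an adjusted p under 0.05. All intervals of the knockout comparisons are grey, whereas 9 probes are called between the control groups, from −6.29 for Arg2 to 1.29 for the second Srm probe.

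Markers of macrophages and of other cell types differed between the control groups as well. Of 7 macrophage markers, Cd14 (−3.94), Adgre1 (−1.61) and Mertk (−0.64) were called lower in Fra-1 controls and Cd68 (1.93) was called higher. All 6 mast cell markers, all 4 tested B cell markers, all 4 tested T cell markers and 5 of 6 markers of large resident peritoneal macrophages were called lower in Fra-1 controls, and all 6 fibroblast and all 6 mesothelial markers were called higher. The large resident macrophage marker that was not called was Gata6 (−0.47, adjusted p = 0.349). The summed signal of mast cell markers was 2.18 to 2.62 in Fra-1 controls against 43.7 to 135 in Fra-2 controls, that of B cell markers 1.39 to 3.30 against 38.0 to 80.2, and that of T cell markers 1.78 to 2.20 against 8.13 to 8.57. Cxcl13, a large resident macrophage marker, had no level on a Fra-2 control, so the sum of that array leaves it out. Large resident macrophage markers summed to 14.7 to 16.2 in Fra-1 controls and 112 to 369 in Fra-2 controls. Fibroblast markers ran opposite, at 109 to 157 in Fra-1 controls against 1.37 to 3.22 in Fra-2 controls, and so did mesothelial markers, at 10.1 to 14.7 against 0.727 to 0.790. Neutrophil markers summed to 11.6 to 12.6 in Fra-1 controls and 13.1 to 20.0 in Fra-2 controls. Of 4 tested neutrophil markers, 1 was called higher in Fra-1 controls (Ltf, 3.25) and 1 lower (Camp, −3.99). Eosinophil markers summed to 5.34 to 5.40 in Fra-1 controls and 0.743 to 2.75 in Fra-2 controls. Of 3 tested eosinophil markers, 1 was called higher in Fra-1 controls (Siglecf, 2.55). The eosinophil peroxidase gene Epx was not above background on any array. The part of these cells in the differences of the arginine genes was not tested.

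The rest of the pathway was read from a list of 54 other enzymes, transporters and regulators, of which 51 were on the array and 45 were tested, by the brightest probe of each. Between the controls 16 of the 45 were called higher and 6 lower in Fra-1 controls, beside 17.1% and 17.6% of all probes, with a median of 0.19. Gatm, which uses arginine to make the creatine precursor guanidinoacetate, was 3.59 higher in Fra-1 controls (SE 0.37, adjusted p = 0.00125). Slc18b1, a vesicular polyamine transporter, was 3.53 higher (adjusted p = 0.000789) and was above background on only 1 Fra-2 control array. Azin1, which frees ornithine decarboxylase from its inhibitor antizyme, was 2.11 higher (adjusted p = 0.000684). Sms, spermine synthase, read 4.29 and 3.97 in Fra-1 controls against 2.07 and 2.07 in Fra-2 controls (2.06 higher, adjusted p = 0.000389). Next came 4 enzymes that acetylate or oxidize polyamines or are relatives of such enzymes. Sat1, which acetylates spermidine and spermine, was 1.61 higher (adjusted p = 0.00382), and Paox, polyamine oxidase, was 0.65 higher (adjusted p = 0.0230). Smox, spermine oxidase, was lower (−1.17, adjusted p = 0.0194), and Sat2 differed by 0.86 and was not called (adjusted p = 0.0787). Sms and these 4 enzymes were picked out for that comparison after their values were seen.

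Regulators known for these genes split in the same comparison. Of 8 receptors and factors known to act on Arg1, 2 were called higher in Fra-1 controls and 5 lower, beside the same 17.1% and 17.6% of all probes, to which the counts of the next lists also compare. Pparg, a nuclear receptor of fatty acids, read 5.24 and 4.77 in Fra-1 controls against −0.11 and −0.60 in Fra-2 controls (5.36 higher, SE 0.24, adjusted p = 0.000153), and Epas1, hypoxia-inducible factor 2 alpha, was 3.31 higher. The receptor chain Il4ra was lower (−2.81, adjusted p = 0.0154), as were Il13ra1 (−2.50), Hif1a (−2.20) and Stat3 (−1.52). Of 8 known for Nos2, 4 were lower and 0 higher, among them Irf1 (−2.09) and Nfkb1 (−1.60). Of 3 known for Odc1 and Srm, 2 were higher: Myc (1.77, adjusted p = 0.00559, picked out after its value was seen) and its relative Mycn, which was at least 2.79-fold higher in Fra-1 controls and not above background in Fra-2 controls.

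In the knockout comparisons and in their contrast 0 of these 45 enzymes and 19 regulators were called. At an unadjusted p under 0.05 the enzymes numbered 2 in the Fra-1 comparison, 0 in the Fra-2 comparison and 2 in the contrast, and the regulators 1, 0 and 1, beside 8.63%, 8.69% and 9.33% of all probes. These shares of the lists were below those of all probes. The regulator was Mycn, not above background on either Fra-1 knockout array and at −3.42 and −2.79 in Fra-1 controls. It was at least 2.57-fold lower in Fra-1 knockouts, with an adjusted p of 0.0654. Nos3, the endothelial nitric oxide synthase, read −0.50 and −0.65 in Fra-1 knockouts against −1.36 and −1.12 in Fra-1 controls (0.66 higher, SE 0.17, adjusted p = 0.388). Slc7a3, the transporter CAT3, differed by −0.80 (adjusted p = 0.441). In the Fra-2 line the smallest p-values belonged to the polyamine acetyltransferase relative Sat2 (−0.72), the polyamine oxidase Paox (−0.35) and Qdpr, which regenerates the cofactor of nitric oxide synthases (−0.30), at adjusted p of 0.599 to 0.617.

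**Figure D5:**
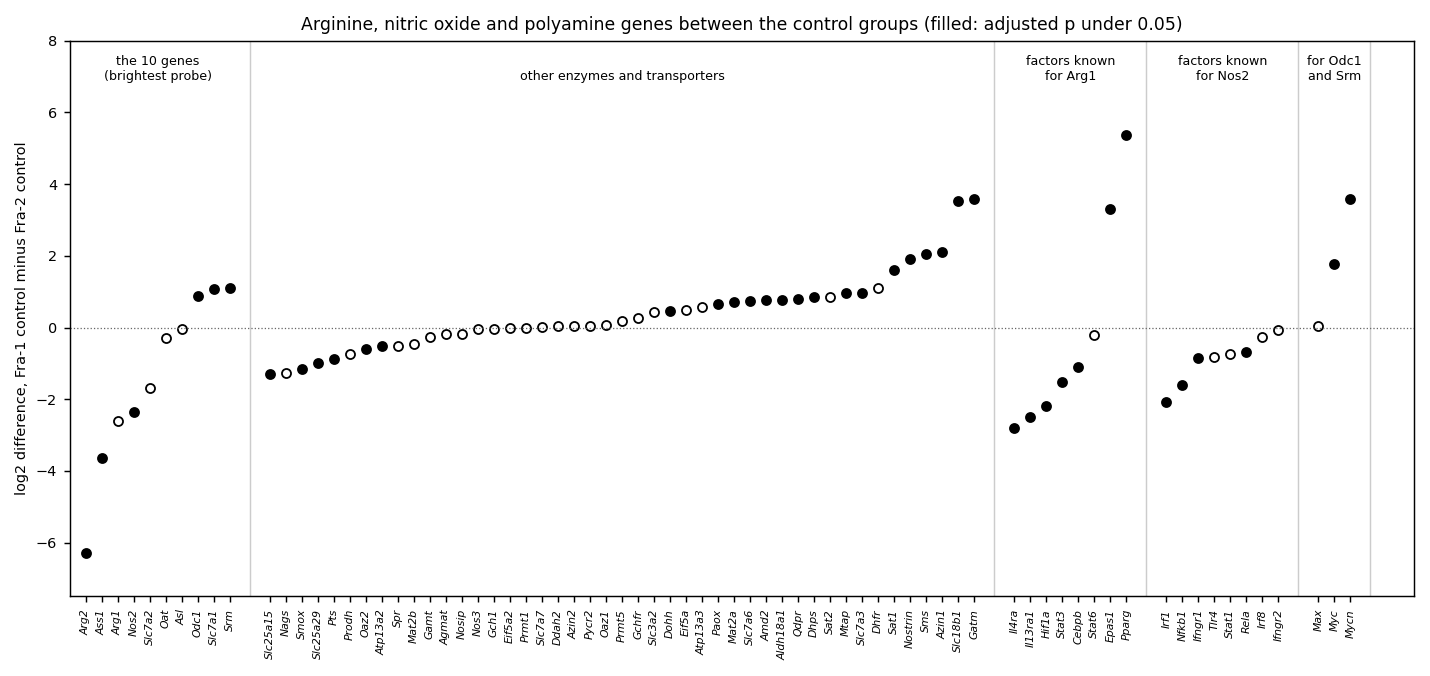
Log2 difference between Fra-1 and Fra-2 controls (vertical axis) for the 10 genes, by their brightest probe, and for the tested enzymes, transporters and regulators of the pathway (horizontal axis, ordered within each list), filled where called. The 10 genes run from Arg2 at −6.29 to Srm at 1.11, and the others from Il4ra at −2.81 to Pparg at 5.36.

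The genes whose levels over the 8 arrays were most like those of Arg1 and of Nos2 were sought among 11371 named genes that were above background throughout. Likeness was the root mean square difference of log2 levels, each gene centred on its own mean, and it is given as a description of these arrays. For Arg1 the nearest was Ankrd37, an ankyrin repeat protein, at 0.637 log2 units, followed by the collagenase Mmp13 (0.922), Cgref1 (1.001), the prolyl hydroxylase Egln3 (1.02) and the chemokine Ccl9 (1.03). Ankrd37 read 3.73 and 3.07 in Fra-1 knockouts, −0.78 and 2.54 in Fra-1 controls, 1.43 and 2.18 on the arrays labelled Fra-2 knockout, and 2.49 and 2.67 in Fra-2 controls. Like Arg1 it was lowest on Fra-1 control 1. For Nos2 the nearest was Bnip3, a mitochondrial outer membrane protein, at 0.297, and next came Slc7a2 at 0.318, itself one of the 10 genes. Iqgap3 (0.344), Egln3 (0.355) and the ephrin receptor Epha5 (0.356) followed. Egln3 stood in both lists, and its 8 values were 1.63 and 0.97 in Fra-1 knockouts, −0.46 and 0.82 in Fra-1 controls, 0.89 and 1.81 on the arrays labelled Fra-2 knockout, and 1.87 and 2.36 in Fra-2 controls.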

How the data were processed

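Deposited scanner files of 8 one-colour (Cy3) Agilent arrays, 1 per sample, were used. Per the file headers, signals were extracted with Feature Extraction 11.5.1.1 and the processed signal is a background-subtracted intensity on a linear scale; flags for background, outlier and saturated spots are 0 or 1. Per the labels' protocols, cRNA was made from 50 ng of total RNA. The deposited value table holds log2 values that matched the scanner values with a slope of 1.0 between arrays, centred on each probe's median (medians of the 8 columns −0.155 to 0.247); how the authors scaled them is not given in the sources used here, so they served as an alternative.

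Control and outlier spots were dropped, log2 intensities of a probe's spots averaged, and each array's 75th percentile over noncontrol probes subtracted. Probes well above background on all arrays of at least 1 group were tested with limma 3.58.1 in R 4.3.3, group means over all 8 arrays (residual degrees of freedom 4, prior 2.04), with Benjamini-Hochberg adjustment over all probes of a comparison. A probe not above background on any array of a group gives only a bound, set against the lowest level well above background. The script was tested on simulated data. Plots were drawn with matplotlib 3.10.9 under Python 3.11.15, and tables were made with pandas 2.3.3 and numpy 2.4.6. Gene names came from RefSeq accessions (GRCm38.p6; 28026 probes named, 21154 genes), whereas array headers give mm9.

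The genes and lists were chosen with earlier results of these data known. All probes of the 10 genes are named; of the other pathway genes, per comparison, the called ones (up to 6 per direction) or the 3 with the smallest p; and the 5 genes most like Arg1 and Nos2. Alternatives were quantile normalization, normexp background correction on median signals (offset 50), the value table, other filters, 1 probe per gene, slide as a block or within slides, only the groups compared, a trended prior, a common floor, line averages, and leaving out each array. The design text counts mice per genotype, and p-values measure only the spread between these arrays, whose number limits the precision. Protein sequences were not used here.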

Additional observations from a re-analysis of the deposited data

How the results depend on the processing

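With 2 arrays a group, single arrays and settings moved many small differences. In the Fra-1, Fra-2 and contrast fits, no probe of the 10 genes was called under any alternative run. Between controls 6 of 10 genes (brightest probes only) and 8 to 11 of 14 probes were called. Calls there that depended on the setting were those of 4 probes. The middle Odc1 probe was lost in 8 alternatives (0.44 to 0.65, adjusted p 0.0625 to 0.151). Slc7a2 was called in 6 (adjusted p 0.0193 to 0.0410), the dimmest Odc1 probe without either array labelled Fra-2 knockout (adjusted p = 0.0450) and with lines averaged (adjusted p = 0.00405), and Arg1 without Fra-1 control 2 (adjusted p = 0.00733). Counts over all probes in the Fra-1 comparison, 5 as reported, were 31 with quantile normalization, 27 with a common floor, 3 with the brightest probe of each gene, 1 with a filter on all 8 arrays, 0 with normexp, no filter, slide as a block, a trended prior or only the groups compared, and 0 to 27 with each array left out (27 without either array labelled Fra-2 knockout, 2 without Fra-1 knockout 1, 3 without either Fra-1 control, 0 without either Fra-2 control). In the Fra-2 comparison, 1 as reported, they were 26 with quantile normalization, 28 with normexp, 77 with a trended prior, 19 with a common floor, 10 with the filter on all 8 arrays, 0 with the value table, no filter, brightest probes, slide as a block or only the groups compared, and 0 to 80 with each array left out (80 without the second array labelled knockout, 14 without the first, 11 without Fra-2 control 1, 0 without either Fra-1 knockout). For the contrast, 1 as reported, they were 15 with quantile normalization, 0 with normexp, no filter, slide as a block, a trended prior or a common floor, and 0 to 37 with each array left out (37 without the second array labelled Fra-2 knockout, 8 without the first, 0 without control 2 of either line, and 2 without each of the other 4 arrays). Between controls, 10778 as reported, the count was 16418 with lines averaged and 7039, without Fra-1 control 2, to 11182 with each array left out. The cause of these moves was not tested.

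Signs that turned all belonged to differences that were not called. With each array left out, the Fra-1 comparison gave −0.49 to 0.32 for Arg2, −0.04 to 0.14 for the middle Odc1 probe, −0.19 to 0.28 and −0.13 to 0.11 for the brighter and dimmer Srm probes, −0.02 to 0.22 for Oat and −0.08 to 0.57 for Slc7a2. There, the brightest Odc1 probe gave −0.02 with normexp, and Slc7a2 gave −0.18 with slide as a block. In the Fra-2 comparison the brighter and dimmer Ass1 probes ran from −0.51 to 0.72 and −0.61 to 0.76, Asl from −0.16 to 0.10 and the dimmer Srm probe from −0.38 to 0.01. Within slide 1, Ass1 gave −0.08 and −0.18 and that Srm probe 0.01. In the contrast Ass1 ran from −0.10 to 1.13 and −0.14 to 1.23 and the dimmer Srm probe from −0.02 to 0.37, with −0.01 within slide 1. Between controls Asl ran from −0.21 to 0.11 and gave 0.03 with slide as a block, 0.06 within slide 1 and 0.07 with lines averaged.

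No paired analysis was possible because the labels give no number that groups share, and slide was used as a block in its place. Slide 2 held no Fra-1 control, so within-slide values of the Fra-1 comparison rest on slide 1.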
